A study of Mus musculus with 217 samples.

Results

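Striatal transcripts of 12-month-old mice were compared between mice in which the mutant huntingtin allele was repressed from conception and mice in which it was expressed. The libraries were the 19 of 217 in the series that the labels give as striatum of LacQ140_A (10 mice, 5 females and 5 males) or LacQ140 (9 mice, 4 females and 5 males) at 12 months. All 19 mice were C57BL/6 (C57BL/6J in the methods of the study), carried 1 copy of the knocked-in Hdh(LacO-140Q/+) allele and the beta-actin-LacIR transgene, and were the same age, and each library was total RNA of the striatum of 1 mouse. LacQ140 mice were given IPTG from embryonic day 5 onward, which keeps the lac repressor off the operators and leaves m*Htt* expressed, whereas LacQ140_A mice never received it, so that the allele was repressed from conception. The transgene is driven by the beta-actin promoter, so repression is not confined to neurons or to the brain, and the mice were heterozygous, with an unmodified *Htt* allele that was not regulated. Cages were uniform for sex, genotype and treatment, so cage and group cannot be told apart. IPTG itself also differs between both groups, and WT mice with and without IPTG (10 and 9 mice) give the size of that difference without the mutant allele. The WT mice carried the same repressor transgene. Further mice of the mutant genotype and age, used for comparison, received IPTG from embryonic day 5 until its withdrawal at 2 months (LacQ140_2M, 10 mice) or 8 months (LacQ140_8M, 9 mice). LacQ140 and LacQ140_A mice killed at 6 months, treated in the same 2 ways, were also compared, and the labels place all 6-month libraries in one batch and all 12-month libraries in another, so that age and batch cannot be told apart.

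Huntingtin with an expanded polyglutamine stretch causes Huntington disease, in which the spiny projection neurons of the striatum are affected early. These neurons fall into a direct pathway type, which carries the dopamine receptor *Drd1*, and an indirect pathway type, which carries *Drd2*, *Adora2a* and the opioid peptide gene *Penk*. In mice with an expanded allele these cells lose transcripts of their mature identity and gain transcripts of developmental regulators that Polycomb complexes normally keep silent.

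The regulated element lies at the *Htt* start site, which is shown first because the comparison rests on it. The window from 250 bases before to 50 bases after the RefSeq start of *Htt*, chr5:34761490-34761789 on the plus strand of GRCm38.p6, holds 1 site for the restriction enzyme AatII (GACGTC, in capitals), the upstream end of the fragment that was exchanged for one with operators. The site begins at base 238 of the window, 13 bases before the start, and 4.40% of 32851 promoter windows of the same length hold this palindrome. The sequence is the unmodified reference, without operators.
Htt: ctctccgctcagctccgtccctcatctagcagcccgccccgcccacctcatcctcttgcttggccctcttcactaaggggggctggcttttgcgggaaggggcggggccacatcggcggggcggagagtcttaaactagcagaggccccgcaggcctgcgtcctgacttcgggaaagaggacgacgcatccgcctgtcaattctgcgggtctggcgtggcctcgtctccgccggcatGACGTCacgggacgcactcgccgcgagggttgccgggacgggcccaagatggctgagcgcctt
A further 5 windows belong to genes described below, with each CG dinucleotide in capitals, because CG-rich promoters are where Polycomb complexes are best known to act. *Onecut1* (chr9:74861671-74861970, plus strand) and *Hoxc4* (chr15:103034145-103034444, plus strand) are developmental factors that fell.
Onecut1: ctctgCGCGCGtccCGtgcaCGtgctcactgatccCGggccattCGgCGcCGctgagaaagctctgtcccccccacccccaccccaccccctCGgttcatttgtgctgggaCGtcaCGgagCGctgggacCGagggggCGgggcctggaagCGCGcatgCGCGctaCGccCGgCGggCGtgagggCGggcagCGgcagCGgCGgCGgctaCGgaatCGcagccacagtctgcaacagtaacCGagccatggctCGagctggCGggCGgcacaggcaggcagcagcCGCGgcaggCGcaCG
Hoxc4: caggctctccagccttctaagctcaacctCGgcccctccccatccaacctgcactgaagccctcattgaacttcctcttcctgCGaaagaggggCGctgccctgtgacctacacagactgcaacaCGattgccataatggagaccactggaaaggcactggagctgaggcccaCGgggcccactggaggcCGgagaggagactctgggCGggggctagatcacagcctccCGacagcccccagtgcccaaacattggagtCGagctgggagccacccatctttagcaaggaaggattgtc
*Gpx6* (chr13:21311953-21312252, plus strand), *Upb1* (chr10:75406661-75406960, plus strand) and *Scn4b* (chr9:45138374-45138673, plus strand) are genes of mature spiny neurons that rose.
Gpx6: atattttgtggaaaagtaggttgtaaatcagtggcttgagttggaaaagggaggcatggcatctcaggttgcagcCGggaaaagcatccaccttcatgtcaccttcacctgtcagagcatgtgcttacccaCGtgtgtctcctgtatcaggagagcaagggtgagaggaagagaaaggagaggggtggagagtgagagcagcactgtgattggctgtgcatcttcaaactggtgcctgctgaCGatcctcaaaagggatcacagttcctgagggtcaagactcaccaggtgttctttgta
Upb1: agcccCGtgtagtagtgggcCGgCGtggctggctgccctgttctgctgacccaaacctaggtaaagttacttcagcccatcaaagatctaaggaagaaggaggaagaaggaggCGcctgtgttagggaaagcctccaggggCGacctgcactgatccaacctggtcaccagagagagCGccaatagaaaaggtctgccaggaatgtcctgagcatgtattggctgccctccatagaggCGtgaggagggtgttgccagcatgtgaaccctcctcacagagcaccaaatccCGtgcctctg
Scn4b: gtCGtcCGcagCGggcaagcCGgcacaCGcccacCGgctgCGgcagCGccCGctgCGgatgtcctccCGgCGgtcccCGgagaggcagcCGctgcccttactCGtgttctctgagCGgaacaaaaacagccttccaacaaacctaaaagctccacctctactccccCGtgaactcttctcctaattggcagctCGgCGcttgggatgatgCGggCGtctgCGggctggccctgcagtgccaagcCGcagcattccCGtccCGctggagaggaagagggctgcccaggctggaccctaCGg
CG occurred 38 times in the window of *Onecut1* and 9 times in that of *Hoxc4*, and 3, 8 and 26 times in those of *Gpx6*, *Upb1* and *Scn4b*. Over all windows the median was 7, with quartiles of 3 and 20, and 94.6% held CG at least once. For tested genes with a mean of at least 1 CPM the median was 20, with quartiles of 13 and 28, but only 75.3% of them had a window, too few for a comparison. A comparison of CG content between risen and fallen genes was void, because windows matched only 66.3% of the risen and 66.7% of the fallen genes.

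Summed counts of the 19 libraries lay between 34639024 and 47893389. Counts are estimated reads per gene, and levels are given in CPM, which are counts relative to the library total, scaled by TMM to correct for differences in library composition. Among the LacQ140_A females 3 stood apart. Libraries F1, F2 and F3 had coordinates of 0.383, 0.283 and 0.321 on the second principal component of the 57 striatal libraries at 12 months (14.6% of the variance), against at most 0.158 in the other LacQ140_A females and 0.183 in any other group. Their slopes of expression on transcript length were -0.251, -0.208 and -0.213 log2 CPM per doubling of length, against -0.130 and -0.146 in the other LacQ140_A females and -0.183 to -0.0588 in LacQ140, while WT mice on IPTG reached -0.214. Without these 3 libraries 297 genes were called for lowering, of which 202 were among the 322 called with them, so 120 calls were lost. Values without them are given beside many of the results. One LacQ140 male, M1, held transcripts of the lateral hypothalamus, as described with the fallen genes.

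The labels were checked on *Htt* itself, whose counts sum both alleles. *Htt* lay between 96.7 and 124 CPM in LacQ140 (median 113) and between 71.4 and 117 CPM in LacQ140_A (median 90.9), so the groups overlapped, with 7 LacQ140_A libraries below every LacQ140 library. The log2 fold change of LacQ140_A over LacQ140 was -0.25 (standard error 0.07, adjusted p = 0.0490, edgeR quasi-likelihood test). A gene was called here when its adjusted p was under 0.05 and its level changed by at least 20%, and *Htt* missed the second bound. In females the log2 fold change was -0.39 and in males -0.12, and the difference between the sexes was -0.27 (standard error 0.12, adjusted p = 0.390). Without F1, F2 and F3 it was -0.14 (adjusted p = 0.565), and these were the 3 lowest libraries of LacQ140_A. Both groups lay under WT mice on IPTG, at a mean of 146 ± 11.2 CPM (SD, n = 10), against 111 ± 10.9 (n = 9) in LacQ140 and 93.4 ± 15.9 (n = 10) in LacQ140_A. Of 15 genes listed from the *Htt* region of chromosome 5, *Htt* included, 0 were called by edgeR with all libraries. At an unadjusted p under 0.05 stood 2, and the median log2 fold change was -0.05. The other of these 2 was *Sh3bp2*, an adaptor protein of immune cells, with a log2 fold change of 0.30 (adjusted p = 0.138). In an edgeR fit of females alone both were called, *Htt* at -0.39 (adjusted p = 0.00386) and *Sh3bp2* at 0.65 (adjusted p = 0.00405). In males alone they were at -0.12 and -0.06.

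Lowering from conception changed genes in both directions, most by less than 2-fold. Of 35386 genes tested, 0.910% were called, with 0.562% risen in LacQ140_A and 0.348% fallen. Of the 322 genes called, 271 were protein coding, the risen had a median log2 fold change of 0.50 and the fallen of -0.52, and the median over all genes tested was 0. Past a log2 fold change of 1 stood 28 risen and 29 fallen genes. Levels of the groups did not overlap in 0.138% of all genes tested, 49 genes, of which 45 were called. In this bulk tissue fewer cells of a type and less RNA per cell cannot be told apart.

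Among genes of the mature spiny projection neuron some rose, and those shared by both of its types all had a positive log2 fold change. Of 30 genes that both types of spiny neuron share, 13 rose, 0 fell and all 30 had a positive log2 fold change, with a median of 0.26, where 0.562% of all genes rose and the median was 0. The summed level of the 30 genes was 12755 to 15499 CPM in LacQ140 (median 14361) and 14750 to 19496 CPM in LacQ140_A (median 16846). Among genes with a mean of at least 1 CPM, to which all 30 belong, 1.18% rose. This list was chosen with earlier results of these data known, so its counts describe it and are not an independent test. Without F1, F2 and F3 the list held 16 risen genes.

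*Gpx6*, a glutathione peroxidase that in rodents holds no selenocysteine, had the largest log2 fold change of this list. It lay between 0.459 and 1.12 CPM in LacQ140 (median 0.814) and between 1.56 and 4.41 CPM in LacQ140_A (median 2.73). No library of one group reached the other, and F1, F2 and F3 were the 3 highest. The log2 fold change was 1.85 (standard error 0.22, adjusted p = 1.51e-08), or 1.58 without those 3 libraries. Its mean in WT mice on IPTG was 12.1 ± 3.35 CPM (SD, n = 10), so that LacQ140 held 6.47% and LacQ140_A 23.1% of that level.

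*Scn4b*, the sodium channel beta 4 subunit that shapes the resurgent current, lay between 555 and 767 CPM in LacQ140 (median 613) and between 739 and 1149 in LacQ140_A (median 910). The groups overlapped, since LacQ140 F4 lay above LacQ140_A M5 and F1, and the log2 fold change was 0.54 (standard error 0.06, adjusted p = 4.63e-09). *Arpp19*, a cAMP-regulated phosphoprotein, rose from a median of 284 CPM (232 to 310) to 413 CPM, with a minimum of 318 CPM and no overlap and a log2 fold change of 0.54 (adjusted p = 1.18e-07). *Arpp21*, another cAMP-regulated phosphoprotein of the striatum, rose from a median of 788 (697 to 840) to 1000 CPM (911 to 1170), also with no overlap (log2 fold change 0.38, adjusted p = 2.64e-05). *Ddit4l*, an inhibitor of mTOR signalling, lay between 5.47 and 8.54 CPM in LacQ140 and between 8.81 and 12.2 CPM in LacQ140_A (log2 fold change 0.64). With *Gpx6*, 4 genes of the list did not overlap between groups, as 0.138% of all genes tested did not. The cannabinoid receptor *Cnr1* (0.49), the potassium channel partner *Kcnip2* (0.42), the cytoskeletal linker *Actn2* (0.39) and the peptidase *Ace* (0.32) rose as well, on the log2 scale. The call of *Ace* was lost without LacQ140 M4, LacQ140_A M1 or LacQ140_A M2 (0.28 to 0.30), and that of the exchange factor *Rasgrp2* (0.30) without LacQ140 M3 (0.25).

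Of the genes that carry the dopamine signal inside the cell, *Ppp1r1b* (DARPP-32) rose, from a median of 1721 CPM (1367 to 1913) to 2022 CPM (1766 to 2587). Its log2 fold change was 0.30 (standard error 0.07, adjusted p = 0.0130), but 0.22 without F1, F2 and F3 (adjusted p = 0.201), 2 of which were the highest libraries. The opposite held for 4 others. *Pde10a*, the phosphodiesterase of spiny neurons, had a log2 fold change of 0.31 (adjusted p = 0.0596) in all libraries and 0.46 (adjusted p = 0.000127) without those 3. *Adcy5*, the striatal adenylyl cyclase, went from 0.25 (adjusted p = 0.00446, under the fold bound) to 0.31, *Drd1* from 0.25 (adjusted p = 0.107) to 0.36 (adjusted p = 0.00442), and *Drd2* from 0.25 (adjusted p = 0.0563) to 0.29 (adjusted p = 0.0344). All 4 genes were called without F1, F2 and F3, and their ranges in both groups overlapped.

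**Figure D1:**
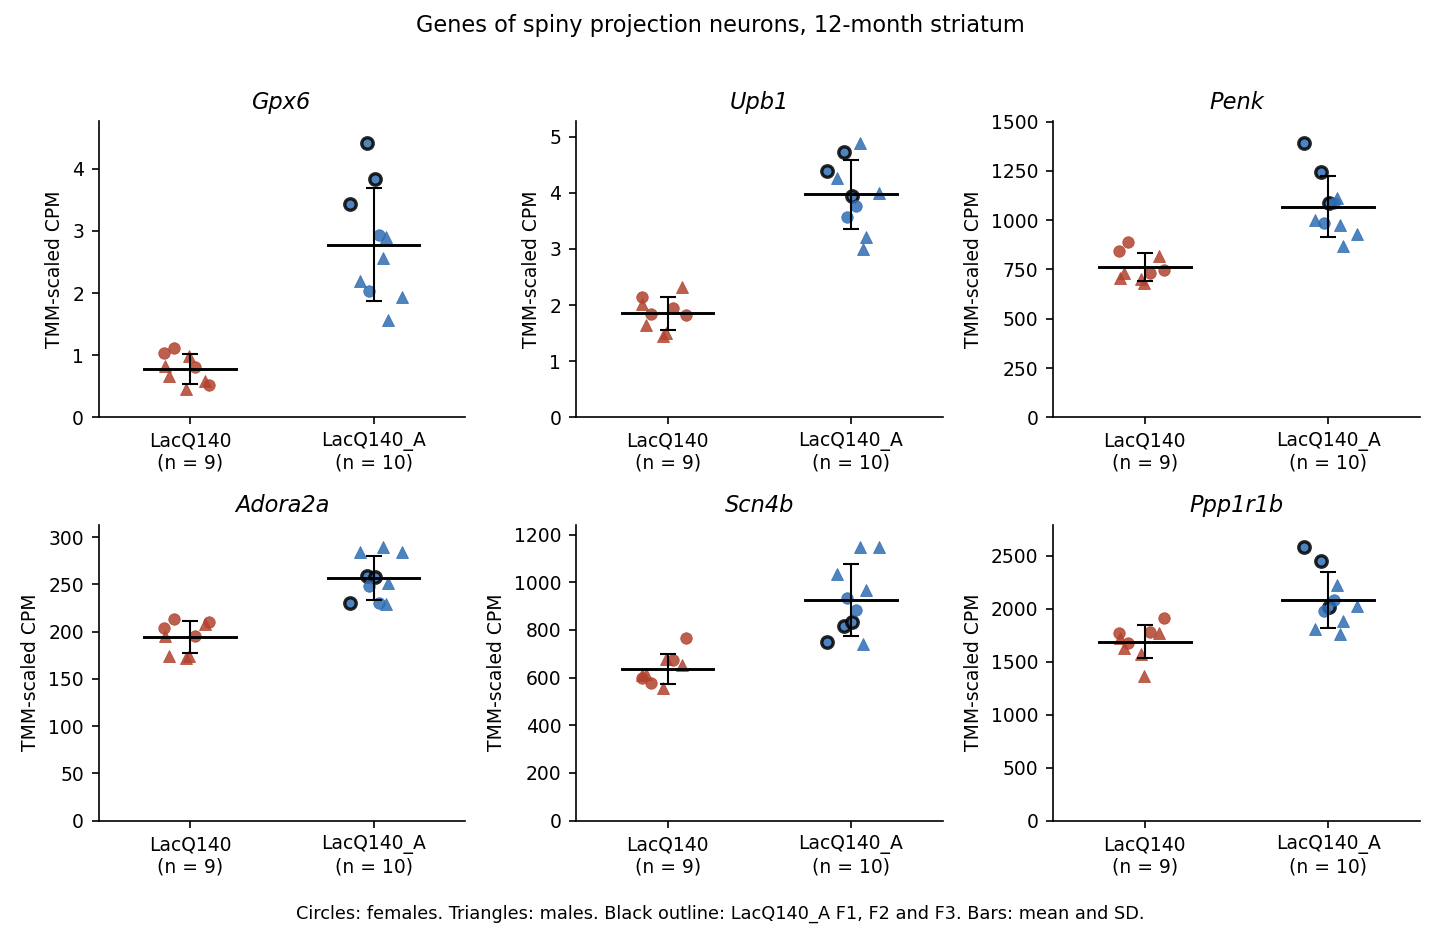
TMM-scaled CPM of 6 spiny neuron genes in each LacQ140 (n = 9) and LacQ140_A (n = 10) library of the 12-month striatum, circles for females and triangles for males, with the mean and SD as bars and F1, F2 and F3 outlined in black. *Gpx6*, *Upb1* and *Adora2a* do not overlap between groups, and the outlined libraries are the highest for *Gpx6* (3.43 to 4.41 CPM) but lie at 748 to 832 CPM for *Scn4b*, in the lower part of LacQ140_A.

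Some genes of the indirect pathway rose, and those of the direct pathway were not called. Of 9 indirect pathway genes tested, 4 rose and 0 fell, with a median log2 fold change of 0.25. Over all genes tested 0.562% rose, 0.348% fell and the median was 0. At levels of 1 CPM or more, where all members of both lists lie, the shares were 1.18% and 0.624%. Of 10 direct pathway genes, 0 rose and 0 fell by the edgeR quasi-likelihood test and by DESeq2, with a median of 0.06. At an unadjusted p under 0.05 stood 3, *Drd1* (0.25), the opioid peptide gene *Pdyn* (0.24) and the substance P gene *Tac1* (0.24), with adjusted p-values of 0.107, 0.0998 and 0.112. With shares this small, 0 calls among 10 genes do not set the direct pathway apart from all genes. Without F1, F2 and F3 the risen counts were 5 indirect and 1 direct, where 297 genes were called in either direction. The difference between both lists was not tested, and both were chosen with earlier results of these data known.

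*Penk*, the proenkephalin gene, lay between 683 and 890 CPM in LacQ140 (median 734) and between 871 and 1390 CPM in LacQ140_A (median 1044). Only LacQ140 F3 and LacQ140_A M1 crossed, and the log2 fold change was 0.49 (standard error 0.07, adjusted p = 9.18e-06), or 0.39 without F1, F2 and F3. *Adora2a*, the adenosine receptor of this pathway, lay between 172 and 214 CPM in LacQ140 (median 196) and between 230 and 290 CPM in LacQ140_A (median 255), with no overlap (log2 fold change 0.40, standard error 0.06, adjusted p = 2.33e-05). *Upb1*, beta-ureidopropionase of pyrimidine breakdown, lay between 1.44 and 2.33 CPM in LacQ140 (median 1.84), and LacQ140_A reached 4.88 CPM (median 3.97), also with no overlap (log2 fold change 1.10, standard error 0.13, adjusted p = 3.23e-09). It overlaps *Gucd1* on the opposite strand, and since the strand setting of the counting is not given in the sources used here, reads of the 2 genes may be mixed. The orphan receptor *Gpr6* rose by 0.37 on the log2 scale.

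Most genes of the shared and indirect pathway lists still lay below their levels in WT mice. The median gene of the shared list held 61.5% of its WT + IPTG level in LacQ140 and 73.5% in LacQ140_A, and the median indirect pathway gene 55.1% and 68.1%. For the direct pathway the values were 92.0% and 94.7%. Against WT mice without IPTG, which like LacQ140_A never received it, 25 of the 30 shared genes were called lower in LacQ140_A, as were 5 of 9 indirect and 2 of 10 direct pathway genes, where 1.91% of all genes were called lower. *Penk* averaged 1069 CPM in LacQ140_A and 1921 CPM in WT mice without IPTG.

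Transcription factors of spiny neuron identity held 1 called gene. Of 20 tested 8 had an unadjusted p under 0.05 (3688 of all 35386 genes), 15 were positive, and 1 rose, against 0.562% of all genes. This was *Six3*, a homeobox factor needed for indirect pathway neurons, which went from a median of 55.6 to 67.2 CPM (log2 fold change 0.28, adjusted p = 0.00416), a call that was lost without LacQ140 M2 (0.25) or without LacQ140_A F5 (0.26). Next came the forkhead factor *Foxo1*, with 0.23 (adjusted p = 0.0611), and 3 factors rose without F1, F2 and F3.

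Further risen genes outside these lists did not overlap between groups. *Abhd11os*, a long noncoding RNA enriched in striatum, went from 2.06 to 6.46 CPM (median 4.09) up to 7.62 to 20.7 CPM (median 11.1), a log2 fold change of 1.56 (standard error 0.16, adjusted p = 2.84e-11). It lies antisense to *Abhd11*, so its counts are uncertain in the same way. *Gm39043*, a long intergenic RNA, went from a median of 3.44 to 7.72 CPM (log2 fold change 1.21) and overlaps a further noncoding gene on the opposite strand. *Sec14l3*, a SEC14-like lipid-binding protein (0.95), *Abi3bp*, an extracellular matrix protein (0.81), and *Gm19410* (0.73) followed. *Col6a4*, a collagen chain, had a log2 fold change of 0.95 (standard error 0.26, adjusted p = 0.0461) and lost its call in 14 of the 19 fits that left out a library (0.84 to 0.97) and without F1, F2 and F3 (adjusted p = 0.0539), though its groups did not overlap. *Wnt8b*, a Wnt ligand, was lower than these in both groups but rose from 0.094 to 0.396 CPM (median 0.209) up to 0.451 to 1.75 CPM (median 1.03), without overlap (log2 fold change 2.13, adjusted p = 1.57e-07).

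Channels and calcium genes showed a handful of risen members and 0 fallen with all libraries, where 0.562% of all genes rose and 0.348% fell. Of 46 voltage-gated potassium and sodium channel genes 4 rose, namely *Scn4b*, *Kcnip2*, *Kcna5* (0.49) and *Kcnip3* (0.27, and 0.21 without F1, F2 and F3, with 5 single libraries each ending the call, at 0.23 to 0.26), and the median of the list was 0.02, or 0.13 without F1, F2 and F3. Of 47 calcium genes 4 rose, with a median of 0.03, and without F1, F2 and F3 6 rose, with a median of 0.10. In females 3 calcium genes were called higher and 2 lower, and in males 4 and 0. The medians were -0.07 in females and 0.13 in males for channels, and -0.05 and 0.09 for calcium genes. *Ryr1*, a calcium release channel of the endoplasmic reticulum, had a median of 7.93 CPM in LacQ140, where the lowest library was at 6.28 CPM, and lay between 9.77 and 27.4 CPM in LacQ140_A (median 16.5), where F3 lay within the LacQ140 range. Its log2 fold change was 1.04 (standard error 0.13, adjusted p = 1.51e-08). *Camk1g*, a calcium/calmodulin kinase, went from a median of 27.6 to 50.5 CPM (log2 fold change 0.84), and the calcium sensor *Hpca* (0.30) and the calmodulin regulator *Pcp4* (0.36) were the others, both not called without F1, F2 and F3 (0.23 and 0.25). *Hrh3*, the histamine H3 receptor of spiny neurons, rose by 0.45 on the log2 scale, and *Ror1*, a receptor for Wnt ligands, by 0.97, both named after their values were seen.

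Among the genes that fell were developmental transcription factors. Of 83 such factors listed 80 were tested, of which 8 fell and 0 rose, where 0.348% of all genes fell, and 0.624% of those with a mean of at least 1 CPM. The median log2 fold change was -0.15, in a list chosen with earlier results of these data known. The 8 were *Wt1*, *Onecut1*, *Onecut2*, *Pou4f1*, *Pax2*, *Pax6*, *Hoxd8* and *Twist1*, and 7 fell without F1, F2 and F3. Only 17 of the list had a mean of at least 1 CPM, and most members were near the limit of detection in every group.

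*Wt1*, the zinc finger factor of kidney and gonad development, lay between 3.58 and 5.99 CPM in LacQ140 (median 4.90) and between 0.888 and 2.26 CPM in LacQ140_A (median 1.45). The groups were separate, with a log2 fold change of -1.72 (standard error 0.14, adjusted p = 1.65e-15). It remained above WT mice, where its mean was 0.0968 CPM without and 0.0858 CPM with IPTG. *Onecut1*, a cut-homeobox factor of motor neuron and liver development, lay between 0.770 and 2.66 CPM in LacQ140 (median 2.13) and between 0.107 and 0.718 CPM in LacQ140_A (median 0.282), again without overlap. Its log2 fold change was -2.52 (standard error 0.22, adjusted p = 2.75e-14). Its relative *Onecut2* had a smaller change, from a median of 28.6 to 23.7 CPM (log2 fold change -0.42, adjusted p = 0.0158), and was not called without F1, F2 and F3 (-0.27), without LacQ140 M3 (-0.31, the library at 50.6 CPM) or without LacQ140_A F1 (-0.36).

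*Pou4f1* (Brn3a), a factor of sensory neurons, was counted 184 times over the 9 LacQ140 libraries and 42 times over the 10 LacQ140_A libraries, a log2 fold change of -2.15 (standard error 0.31, adjusted p = 1.19e-06) without overlap. *Pax2*, a factor of kidney and hindbrain, fell from 80 counts to 9, though the groups overlapped at 0. *Pax6*, the eye and forebrain factor, fell from a median of 8.16 to 6.30 CPM (log2 fold change -0.36, adjusted p = 0.0108). *Twist1*, a mesodermal factor, had a log2 fold change of -1.21 (adjusted p = 0.0401) and lost its call in 13 of 19 fits with a library left out (-1.22 to -1.08). *Lmx1b*, a LIM-homeobox factor of midbrain and limb, fell from 397 counts to 45 without overlap (log2 fold change -3.16, adjusted p = 3.82e-12), and *Nkx2-3* from 118 to 19, both named after their values were seen.

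Part of the HoxC cluster on chromosome 15 fell from low to nearly no expression. *Hoxc4*, a homeobox factor of the posterior body axis, lay between 0.511 and 2.55 CPM in LacQ140 (median 2.05) and between 0 and 0.192 CPM in LacQ140_A (median 0.0752), with 2 of 10 LacQ140_A libraries at 0. The summed counts were 601 and 27, and the log2 fold change was -4.47 (standard error 0.34, adjusted p = 3.28e-17). *Hoxc5* went from 434 counts to 7, with 7 of 10 LacQ140_A libraries at 0, and *Hoxc6* from 79 to 15. *Hoxc5* and *Hoxc6* overlap each other in the annotation, so their reads can be shared. *Hoxd8* was counted 31 times in LacQ140 and 1 time in LacQ140_A, where 9 of 10 libraries were at 0. The Hox genes were listed after values were seen. Of 39 listed 28 were tested and 4 fell, where 0.348% of all genes fell. Of the 28, 0 had a mean of at least 1 CPM. Their summed level was 1.92 to 6.16 CPM in LacQ140 (median 4.10) against 0.570 to 1.44 CPM in LacQ140_A (median 0.774).

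**Figure D2:**
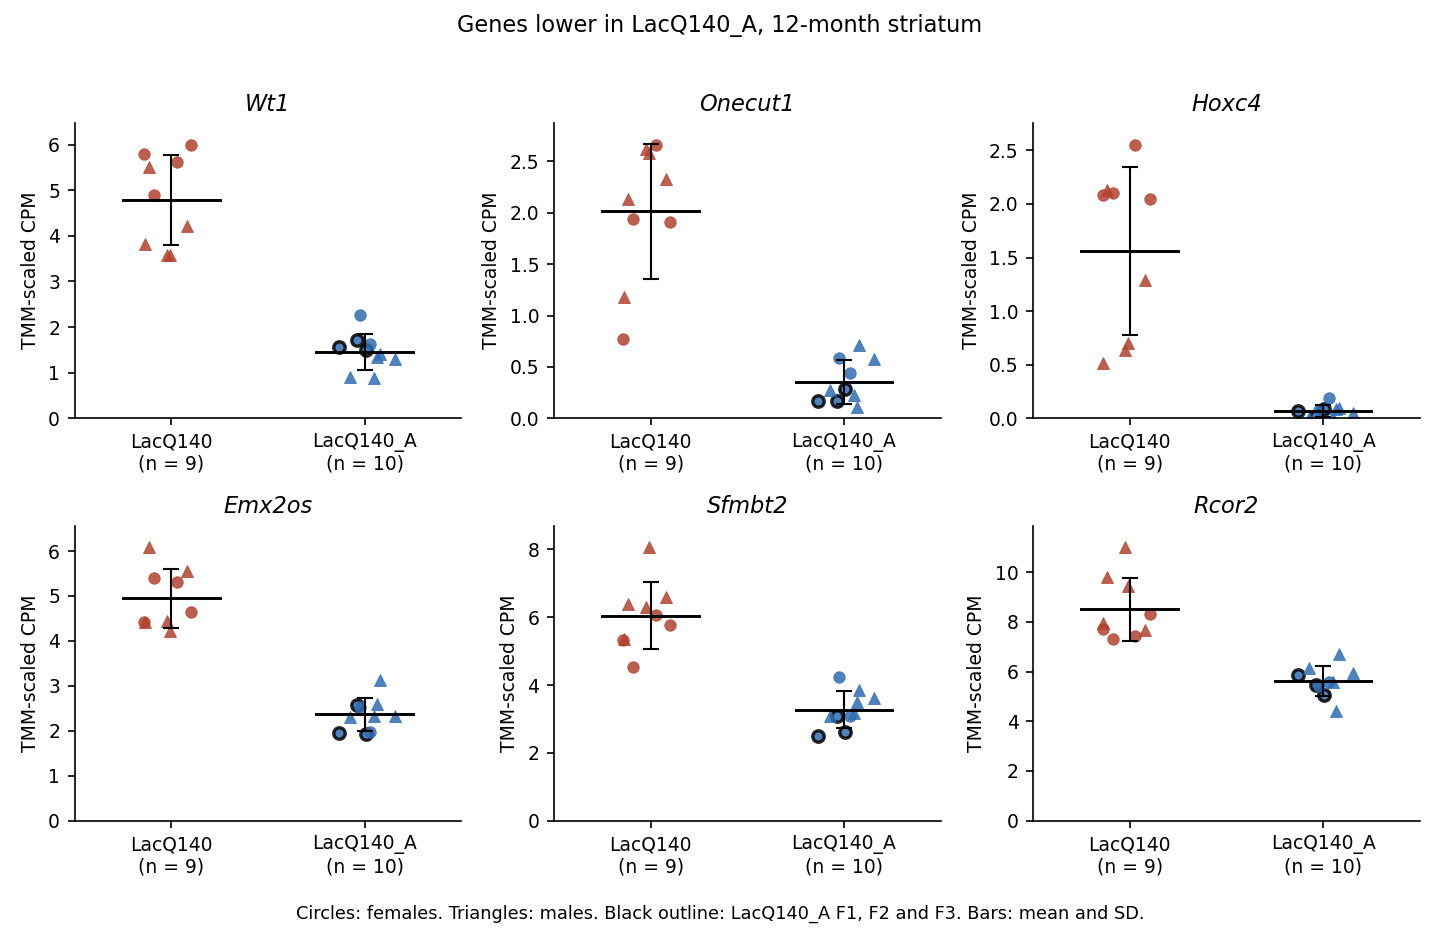
TMM-scaled CPM of 6 genes that fell, in each LacQ140 (n = 9) and LacQ140_A (n = 10) library of the 12-month striatum, circles for females and triangles for males, with the mean and SD as bars and F1, F2 and F3 outlined in black. In all 6 panels every LacQ140_A library lies below every LacQ140 library, with *Wt1* at 3.58 CPM or more in LacQ140 and at 2.26 CPM or less in LacQ140_A.

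Several genes outside the factor list fell too. *Emx2os* went from 4.23 to 6.08 CPM (median 4.65) down to 1.92 to 3.12 CPM (median 2.32), a log2 fold change of -1.06 (standard error 0.11, adjusted p = 4.43e-10), and *Emx2*, a homeobox factor of the cortex, from a median of 10.5 to 6.42 CPM (log2 fold change -0.62, standard error 0.09, adjusted p = 3.71e-06). The 2 genes lie head to head on chromosome 19 and overlap on opposite strands, so they are not independent measurements. *Kazald1*, a secreted Kazal-type protein (-0.85), *Nxph4*, a neurexophilin (-0.82), *Rcor2*, a corepressor of the CoREST family (-0.60), and *Zfp92*, a zinc finger gene (-0.59), fell without overlap as well. *Crnde*, a long noncoding RNA named after its values were seen, went from a median of 2.20 to 0.910 CPM, with no overlap (log2 fold change -1.36, adjusted p = 1.89e-09).

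Polycomb subunits did not move together. Of 32 tested 3 fell and 1 rose, where 0.348% of all genes fell and 0.562% rose. The median log2 fold change was -0.04, and 1 fell and 0 rose by edgeR without F1, F2 and F3. *Sfmbt2*, a Polycomb group protein with MBT repeats, fell from 4.53 to 8.06 CPM (median 6.07) to 2.50 to 4.25 CPM (median 3.14), without overlap (log2 fold change -0.88, standard error 0.10, adjusted p = 4.63e-09). The chromobox subunit *Cbx8* fell (-0.35) and *Epop*, an elongin-binding subunit, rose (0.49), but neither was called without F1, F2 and F3 (-0.27 and 0.32). The methyltransferase *Ezh2* had -0.10 (adjusted p = 0.793).

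Hypothalamic neuropeptides were called fallen on account of 1 library. *Hcrt* (hypocretin) was at 19.3 CPM in LacQ140 M1 and at most 0.136 CPM in the other LacQ140 libraries, and *Pmch* (melanin-concentrating hormone) at 85.1 against at most 1.89 CPM. Their log2 fold changes were -3.91 (adjusted p = 0.00141) and -3.28 (adjusted p = 0.00337) with M1, and 0.80 and 0.35 without it (adjusted p = 0.693 and 0.889). Both genes were chosen after their values were seen. Without M1 320 genes were called, of which 287 were among the 322.

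Lists of other functions held between 0 and 2 called genes each, where 0.562% of all genes rose and 0.348% fell, and 3688 of all 35386 genes had an unadjusted p under 0.05. Of 32 activity-induced immediate early genes 1 rose, *Arl4d* (0.44, adjusted p = 0.00971, and 0.39 without F1, F2 and F3, adjusted p = 0.0827). The median of the list was 0.12, or 0.25 without those 3, with 6 genes at an unadjusted p under 0.05. Of 19 cold-inducible and clock genes 2 rose, the clock output factor *Hlf* (0.30, and 0.26, below the fold bound, without LacQ140_A M4) and the clock repressor *Ciart* (0.67). Of these 19, 16 were positive and 10 had an unadjusted p under 0.05, with a median of 0.15, and 3 rose without F1, F2 and F3. Of 16 neurofilament and axonal cytoskeleton genes 1 fell, the tubulin-binding *Stmn2*, from a median of 170 to 140 CPM (log2 fold change -0.28, adjusted p = 0.00159), a call lost without LacQ140 M2 (-0.25), LacQ140_A M2 (-0.26) or LacQ140_A M3 (-0.26). By the edgeR test 0 were called among 21 heat-inducible chaperones, 22 endoplasmic reticulum chaperones, 41 glutamate receptor genes, 23 GABA genes and 23 cholesterol synthesis genes. At an unadjusted p under 0.05 these lists held 2, 1, 9, 5 and 6 genes, and their medians lay between -0.08 and 0.03. Without F1, F2 and F3 2 glutamate genes and 1 GABA gene rose. *Gabrd*, the delta subunit of extrasynaptic GABA-A receptors, had a log2 fold change of 0.24 (adjusted p = 0.00501), under the fold bound, and *Hsp90aa1*, the inducible HSP90, of -0.17 (adjusted p = 0.131).

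**Figure D3:**
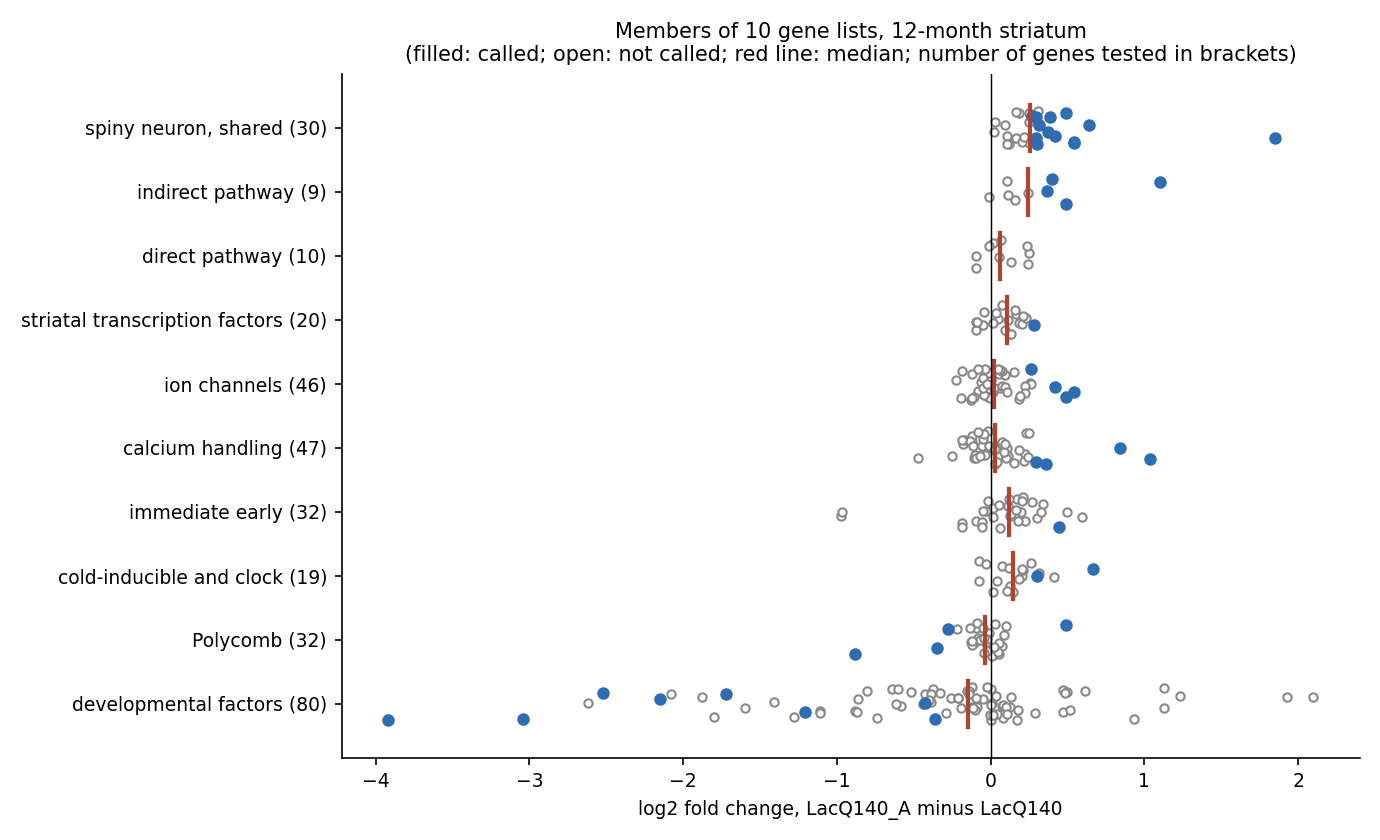
Log2 fold changes of LacQ140_A minus LacQ140 (horizontal axis) for the members of 10 gene lists, 1 point per gene, filled where called, with the median of each list as a red line. All 30 shared spiny neuron genes lie right of 0, and the 8 called developmental factors lie left of it, among many low genes whose fitted values spread widely.

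Markers of other cell types, in 7 lists of 12 genes each, held 0 called genes by edgeR with all libraries. In each list 1 to 3 had an unadjusted p under 0.05. In a fit of females alone, which called 640 genes, 1 oligodendrocyte and 2 cortical markers rose. There 1 astrocyte marker rose and 1 fell, and 1 marker of endothelial cells and pericytes rose and 2 fell. Median log2 fold changes were 0.05 for oligodendrocytes, 0.03 for astrocytes, 0.04 for microglia, -0.01 for endothelial cells and pericytes, 0.22 for ependyma and choroid plexus (0.06 without F1, F2 and F3), -0.08 for striatal interneurons and -0.16 for cortical excitatory neurons. They were, with F1, F2 and F3 left out, 0.02 for oligodendrocytes, -0.04 for microglia and -0.24 for cortical neurons, and the cortical median was 0.33 in females and -0.41 in males, with 0 of 12 called for the difference by edgeR. The summed level of the oligodendrocyte list was 8887 to 14390 CPM in LacQ140 (median 11550) and 10696 to 18167 CPM in LacQ140_A (median 12983). That of the cortical list was 328 to 775 CPM (median 364) and 344 to 484 CPM (median 370). One LacQ140 library, M2, set the highest value, and the next was at 396 CPM. No marker of any list was at 0 in all 19 libraries. The part of oligodendrocyte content in other results was not tested.

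The effect of IPTG itself was read from WT mice. Removal of IPTG changed 77 genes there (29 higher and 48 lower without it), 0.218% of those tested, against 128 by DESeq2, 148 with filterByExpr and 14 with a replicate block. Of the 77, 1 was also called for lowering, *Gm26723*, a long intergenic RNA. It was at 90.1, 32.9 and 45.7 CPM in LacQ140_A F1, F2 and F3 and between 0 and 0.601 CPM in the other 7 LacQ140_A libraries, and was not called without those 3 (adjusted p = 0.884). The genes that rose with lowering had a median log2 fold change of 0.03 for IPTG removal in WT mice, and those that fell of 0.07. Of the 30 shared spiny neuron genes 0 were called by edgeR for IPTG removal, 2 had an unadjusted p under 0.05, and their median was -0.01. *Wt1*, *Gpx6* and *Scn4b* had log2 fold changes of 0.12, -0.08 and -0.03 for IPTG removal (adjusted p of 1, 0.905 and 0.920). The difference of the lowering effect from the IPTG effect was called for 275 genes, 0.777% of those tested, with 177 positive and 98 negative, and for 455 without F1, F2 and F3. Of the shared spiny neuron list 10 were among the positive, of the indirect pathway list 4.

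Members of other lists were called for IPTG removal itself, or fewer were called once it was subtracted. Of 21 heat-inducible chaperones 5 were called lower without IPTG in WT mice, where 48 of all 35386 genes were, and all 21 were lower (median -0.18). Called lower too were 3 of 22 endoplasmic reticulum chaperones (19 lower, median -0.13). So were 2 of 32 immediate early genes (28 lower, median -0.34, with 20 at an unadjusted p under 0.05). The lowering effect beyond IPTG removal was called positive for 177 of all 35386 genes. These included 5 immediate early genes (list median 0.54), 2 endoplasmic reticulum chaperones (0.15), 1 heat-inducible chaperone (0.12) and 3 cold-inducible and clock genes (0.20). Of the 80 developmental factors 50 were lower and 26 higher without IPTG in WT mice (median -0.12, 0 called by edgeR, 8 at an unadjusted p under 0.05, as had 4039 of all 35386 genes). Beyond IPTG removal 1 of them was called lower and 0 higher, with a median of 0.01, 37 negative and 13 at an unadjusted p under 0.05, against the 8 that fell with lowering. The 1 was *Onecut1*, at -4.25 (standard error 1.10, adjusted p = 0.0355), while *Wt1* was at -1.84 (standard error 0.56, adjusted p = 0.106), *Pou4f1* at -3.42 (standard error 1.01, adjusted p = 0.0877) and *Hoxc4* at -5.60 (standard error 1.77, adjusted p = 0.128). These genes were counted few times in WT mice, *Hoxc4* 7 times without and 3 times with IPTG.

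Compared with lowering from 2 months of age, lowering from conception differed in few genes. The direct test of LacQ140_A against LacQ140_2M, in which IPTG was withdrawn at 2 months, called 18 genes (0.0509%), 7 higher and 11 lower in LacQ140_A, and 4 without F1, F2 and F3. *Wt1* was among them, with a mean of 2.39 ± 0.691 CPM (SD, n = 10) in LacQ140_2M against 1.45 ± 0.396 CPM (SD, n = 10) in LacQ140_A (log2 fold change -0.74, adjusted p = 0.00992), as was *Onecut1*, with 0.823 against 0.354 CPM (-1.24, adjusted p = 0.0208). *Asb18*, a SOCS box gene, was lower by 0.45 on the log2 scale. The other calls included the lymphocyte genes *Cd8b1*, *Trbc1* and *Ms4a4b*, at means under 0.1 CPM in LacQ140 and LacQ140_A and of 0.502, 0.291 and 0.779 CPM in LacQ140_2M, and *Gm26723*. Of the 30 shared spiny neuron genes 0 were called by edgeR between both early groups, 3 had an unadjusted p under 0.05, and the median was -0.02. *Gpx6* averaged 2.04 CPM after lowering from 2 months and 2.78 CPM after lowering from conception. Lowering from 8 months left *Gpx6* at 1.16 CPM and *Wt1* at 4.62 CPM, and the median shared gene at 66.5% of its WT + IPTG level.

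**Figure D4:**
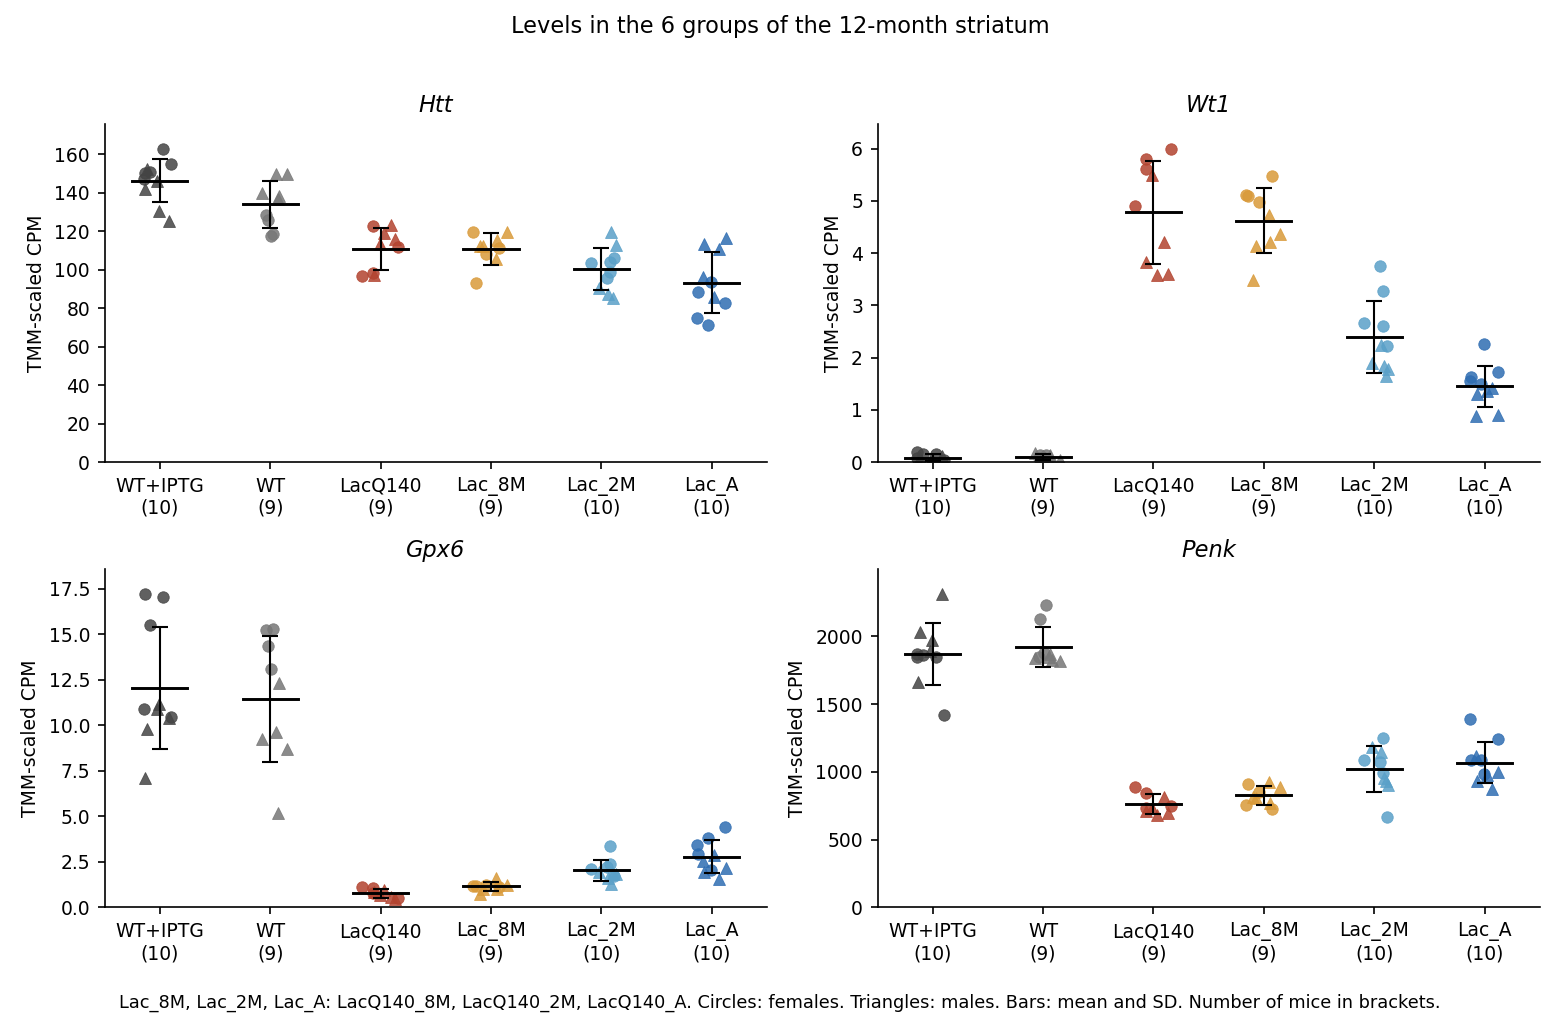
TMM-scaled CPM of *Htt*, *Wt1*, *Gpx6* and *Penk* in each library of the 6 groups of the 12-month striatum, with circles for females, triangles for males and the mean and SD as bars. *Wt1* is near 0 in both WT groups, highest in LacQ140 and LacQ140_8M and lowest among mutant groups in LacQ140_A, while *Gpx6* and *Penk* stay below both WT groups in every mutant group.

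The same comparison in the striatum of other mice at 6 months called 674 genes, 1.88% of those tested there. Of the 322 genes called at 12 months 117 were called at 6 months (36.3% of the 12-month and 17.4% of the 6-month calls), 86 risen and 31 fallen, all in the same direction. The 199 risen genes of 12 months had a median log2 fold change of 0.30 at 6 months, with 161 positive, and the 123 fallen genes of -0.25, with 106 negative. *Gpx6* had 1.69 at 6 months and *Scn4b* 0.73, and *Wt1* had -3.10. Of 79 developmental factors tested at 6 months 2 fell and 1 rose, against 8 and 0 of 80 at 12 months, but the difference between ages was called for 0 of 79 by edgeR, with 12 at an unadjusted p under 0.05 (2358 of all 35016 genes). *Onecut1* fell at both ages (-2.07 at 6 months), and *Hoxc4* (-1.63, adjusted p = 0.618), *Hoxc5* (-0.48), *Pou4f1* (-0.89, adjusted p = 0.379) and *Pax2* (0.66, adjusted p = 0.813) were not called at 6 months, nor was their difference between ages. In LacQ140 at 6 months *Hoxc4* averaged 0.0112 CPM and *Pou4f1* 0.109 CPM. Of the 30 shared spiny neuron genes 22 rose at 6 months, of the 9 indirect pathway genes 5.

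The difference between the effects at both ages was called for 38 genes (0.109%), 18 more positive and 20 more negative at 12 months. Of the genes that fell at 12 months, *Emx2os* had a log2 fold change of -1.06 at 12 and -0.10 at 6 months (difference -0.96, adjusted p = 0.000136), *Emx2* of -0.62 and -0.03 (adjusted p = 0.0137), *Kazald1* of -0.85 and -0.18 (adjusted p = 0.0145) and *Nxph4* of -0.82 and -0.03 (adjusted p = 0.0462). Of the genes that rose at 12 months, *Rasd1*, a dexamethasone-induced Ras protein, had 1.12 and -0.31 (adjusted p = 0.000136), *Camk1g* 0.84 and -0.08 (adjusted p = 0.000714), and *Kcna5* 0.49 and -0.12 (adjusted p = 0.0112). Of the genes called at 6 months alone, *Krt9*, a keratin, had -0.14 at 12 and 0.85 at 6 months (adjusted p = 4.91e-07). Of the shared spiny neuron list 0 were called for the difference between ages by edgeR, 5 had an unadjusted p under 0.05, and the median difference was -0.09. Without F1, F2 and F3 the count of 38 was 25.

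**Figure D5:**
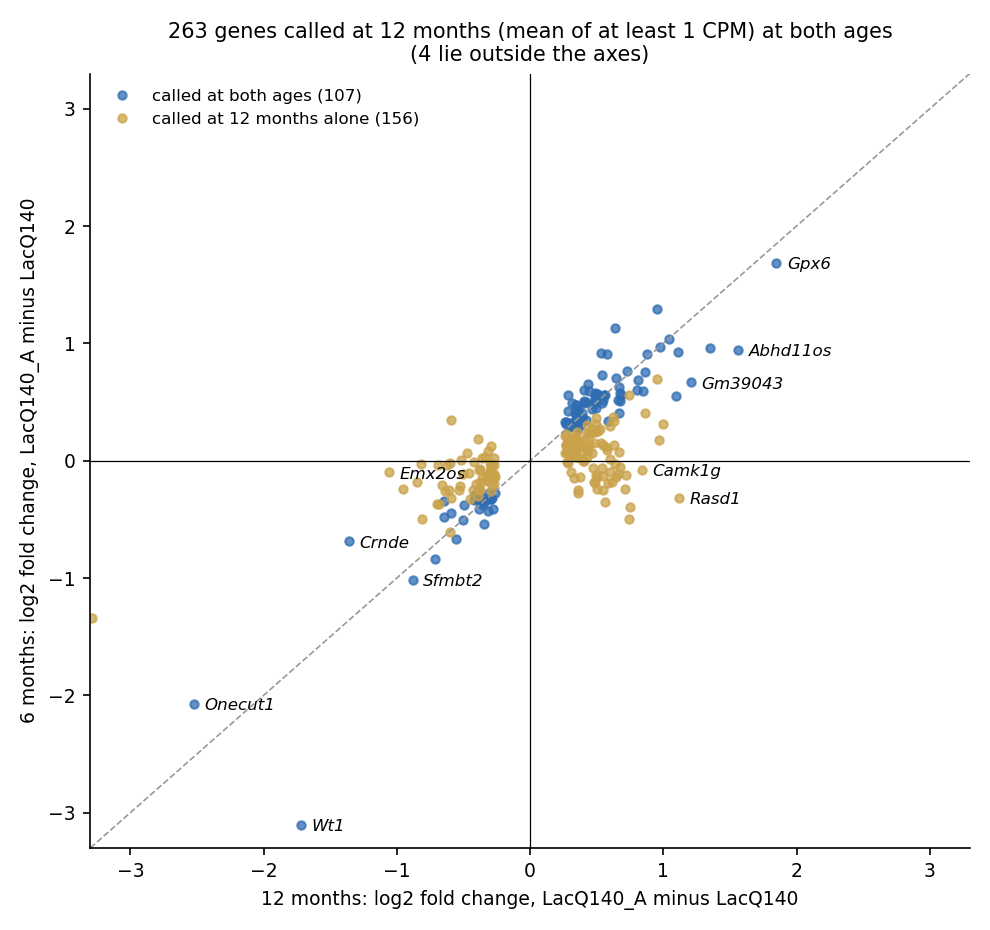
Log2 fold change of LacQ140_A minus LacQ140 at 12 months (horizontal axis) and at 6 months in other mice (vertical axis) for the 263 genes called at 12 months with a mean of at least 1 CPM, 107 of them also called at 6 months (blue) and 156 not (yellow), with the line of equal values dashed. *Gpx6* and *Onecut1* lie near the line, *Emx2os*, *Camk1g* and *Rasd1* lie near or across the horizontal line of no change at 6 months, and 4 genes lie outside the axes.

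Females and males were compared by the difference of their effects. It was called for 6 genes (0.0170%), for 89 by DESeq2, for 71 with filterByExpr, a stricter filter on low counts, and for 0 by edgeR without F1, F2 and F3, which left 2 LacQ140_A females. At an unadjusted p under 0.05 stood 3707 genes with all libraries and 1730 without those 3. In the fit of all 57 libraries by group and sex, 503 genes were called in females and 288 in males. Of the shared spiny neuron genes 6 rose in females and 18 in males (medians 0.16 and 0.33), and of the indirect pathway genes 2 and 5. Over all 35386 genes 240 rose in females and 191 in males. For the difference 0 members of either list were called by edgeR, with 5 and 4 at an unadjusted p under 0.05. The immediate early genes had a median of -0.20 in females (23 of 32 lower) and of 0.38 in males (27 of 32 higher), with 19 of 32 at an unadjusted p under 0.05 for the difference and 0 called by edgeR. *Scn4b* had a log2 fold change of 0.37 in females and 0.70 in males, and *Wt1* of -1.69 and -1.81.

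Lowering from conception was also read on a list that the study took from earlier work on several Huntington disease models and describes as altered in LacQ140 too. Its genes were divided by the sign of the LacQ140 against WT + IPTG difference in other mice at 6 months. Of 195 lower in LacQ140 there, 65 rose and 0 fell with lowering at 12 months, where 0.562% of all genes rose and 0.348% fell, with a median log2 fold change of 0.28 and 193 positive. Of 71 higher there, 21 fell and 0 rose, with a median of -0.26 and 67 negative. Among the 65 were *Abhd11os*, *Ryr1* and *Penk*, and among the 21 *Wt1*, *Onecut1*, *Crnde*, *Sfmbt2* and 4 protocadherins, adhesion proteins of neurons (*Pcdhb2*, *Pcdhb3*, *Pcdhb22* and *Pcdh20*). In LacQ140_A 163 of the 195 were called below WT mice without IPTG, and 55 of the 71 above them, against 1.91% and 1.25% of all genes. Without F1, F2 and F3 the counts of 65 and 21 were 83 and 16.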

How the data were processed

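Striatal RNA of 57 mice at 12 months and 50 mice at 6 months was used, of which the 19 libraries compared here held 34639024 to 47893389 counts each, so that counting error is small for genes above 1 CPM and large for those near 0. The deposited tables hold estimated counts per gene (expected counts, not whole numbers), which the authors made from reads on GRCm38. The aligner, the counting tool and its strand setting are not given in the sources used here. Of 54532 gene identifiers 54495 were matched to symbols.

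Counts were rounded to whole numbers and tested with edgeR 4.0.16 in R 4.3.3 (quasi-likelihood F-test, TMM, group as the only term, all 57 libraries in 1 fit, genes with at least 1 count, no covariates). Genes were called at a Benjamini-Hochberg adjusted p under 0.05 and a change of at least 20%, and standard errors were derived from the F statistic. The effects by sex and by age were tested as differences of differences, the latter over the LacQ140 and LacQ140_A libraries of both ages, since ages were deposited in separate tables. DESeq2 1.42.0, other filters, covariates, single sexes and the omission of each library were alternatives, and the omission of LacQ140_A F1, F2 and F3 together was added after seeing the data. The code was tested on simulated data. Tables were made with Python 3.11.15, numpy 2.4.6 and pandas 2.3.3, and sequences are RefSeq promoter windows of GRCm38.p6. Windows were not matched for *Wt1*, *Penk*, *Adora2a* and *Ppp1r1b*.

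Named genes were *Htt*, 7 genes the study plots, the largest changes in each direction (8 higher, 8 lower) among called genes without overlap and with a mean of at least 1 on the log2 CPM scale, and the 2 genes with the smallest p of each list. Further called members of lists, the Hox genes, the genes named by age, against LacQ140_2M or among disease-model genes, and those named as such were chosen after their values were seen. Some genes so selected are not reported here, though counts include them. Members and gene lists were chosen with earlier results of these data known. Each library is 1 mouse. The closest pair of libraries within a group differed by a chi-square of 9.05 per degree of freedom, so none was a duplicate.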

Additional observations from a re-analysis of the deposited data

Results flagged for a closer look

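In 226 groups of samples and genes, 23 held a library set far from the others of its group by Dixon's criterion, and chance gives about 1 in 20. Among these in LacQ140_A were *Abhd11os* at 20.7 CPM in F1, *Pax2* at 0.124 in M1, *Hoxd8* at 0.0251 in M3, *Ryr1* at 27.4 in M3, *Hlf* at 205 in M4, the oligodendrocyte gene *Cldn11* at 262 in F3, *Folr1* at 1.07 in F2, *Hoxc4* at 0.192 in F5, *Lmx1b* at 0.429 in M5, *Pkp2* at 13.2 in F5, *Spink8* at 6.05 in F1, *Gm26723* at 90.1 in F1 and *Hcrt* at 0.515 CPM in M5. Among these in LacQ140 were *Onecut2* at 50.6 CPM in M3, *Twist1* at 0.510 in M4, *Epop* at 17.6 in M2, *Hrh3* at 157 in M3, *Rasl10a* at 8.78 in M2, *Tsc22d3* at 95.2 in M4, *Gm26723* at 0.140 in M3, and *Hcrt* at 19.3 and *Pmch* at 85.1 CPM in M1.

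The lowering effect differed between females and males, as the difference of log2 fold changes, by 1.87 for *Ada*, 1.70 for *Spink8*, 1.34 for *Galnt15*, 1.38 for *Arrdc2*, -0.79 for *Fam222a* and -1.24 for *Mycn*. None of these 6 was called without LacQ140_A F1, F2 and F3, and 2 females then remained in that group.

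Between 12 and 6 months the effect differed by -0.96 for *Emx2os*, -0.67 for *Kazald1*, -0.79 for *Nxph4*, -0.59 for *Emx2*, 0.33 for *Herpud1*, 0.61 for *Kcna5*, 0.91 for *Camk1g*, -3.06 for *Lmx1b*, 1.44 for *Rasd1*, -0.99 for *Krt9*, 0.82 for *Pkp2*, -0.97 for *Rasl10a*, -0.97 for *Serpinb1b*, 0.91 for *Tsc22d3* and 1.24 for *Arrdc2*, as 12 minus 6 months on the log2 scale.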

How the results depend on the processing

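The number of genes called for lowering from conception lay between 262 (without LacQ140 M2) and 381 (without LacQ140 F3) with 1 library left out. It was 297 without LacQ140_A F1, F2 and F3 (202 of them among the 322) and 136 with a bound of 50% on the change. In a fit of females alone, apart from the fit by group and sex above, it was 640. Of 68 called genes selected for naming, 54 kept their call in all 19 fits with a library left out and 27 in all other alternatives. IPTG removal in WT mice gave 128 calls with DESeq2, 148 with filterByExpr and 14 with a replicate block. Lowering beyond IPTG removal gave 437 with the slope on transcript length as a covariate and 455 without LacQ140_A F1, F2 and F3. The comparison with LacQ140_2M gave 11 with filterByExpr and 4 without these 3 libraries. The effect by sex gave 89 with DESeq2, 71 with filterByExpr and 0 by edgeR without them (1730 at an unadjusted p under 0.05), and the effect by age 75 with DESeq2 and 25 without them. *Hcrt* and *Pmch* turned from a fall to positive values of 0.80 and 0.35 without LacQ140 M1, of 0.84 and 0.39 with DESeq2, and *Hcrt* of 0.31 in females alone. Over single libraries left out, *Hcrt* ranged from -4.44 to 0.80 and *Pmch* from -3.62 to 0.35. The cause was not tested beyond these omissions.

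Replicate numbers were shared between groups, but the numbers did not pair the samples: the correlations of same-numbered libraries ran from -0.246 to 0.378 over 9 pairs, and 2 of 9 LacQ140 libraries correlated best with their own number. With the replicate block 296 genes were called for lowering, of which 281 were among the 322. Depth limits the developmental factors, such as *Pax2* with 80 and *Hoxd8* with 31 counts over the LacQ140 libraries.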
